A study of Mus musculus with 4 samples.

Results

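The Nrf2 pathway was followed in blood as 10 genes: Nfe2l2, which encodes Nrf2, its inhibitor Keap1, and the target genes Hmox1, Nqo1, Gclc, Gclm, Txnrd1, Srxn1, Slc7a11 and G6pdx. The genes were taken by symbol, and all 10 had values in each library, out of 17823 genes with values. The question was whether these genes rose beyond the typical gene in mice given naringenin (Nar), a citrus flavonoid described as an antioxidant. RNA-seq was done on blood of C57BL/6 mice, which the labels call adult and the study describes as aging. The Nar group had 30 days of naringenin given by tail vein injection, and the control group (Ctrl) received PBS in its place. Each group had 2 libraries, Ctrl 1 and Ctrl 3 against Nar 1 and Nar 3, and no allele or transgene is named for either group. The labels do not say whether each library came from 1 mouse, so the p-values measure the spread between these libraries only. For a single gene, the smallest two-sided p that exact permutation of 4 libraries in 2 groups can give is 0.33.

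Nrf2 is a transcription factor that Keap1 holds in the cytoplasm and delivers for degradation. Oxidants and electrophiles modify Keap1, Nrf2 then enters the nucleus, pairs with a small Maf protein and binds antioxidant response elements near its target genes, while the repressor Bach1 competes for the same elements. The targets make and use glutathione, reduce thioredoxin, supply NADPH and break down haem. Nrf2 itself is controlled mainly as a protein, which RNA levels do not show. Maturing red cells carry many antioxidant enzymes of their own, as do neutrophils and monocytes.

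The response element is the sequence through which Nrf2 reaches these genes, so its core was searched for at their start sites. The letters TGACNNNGC, or GCNNNGTCA on the other strand, were looked for on both strands in windows running from 250 bases before to 50 bases after a transcript start in the RefSeq annotation of GRCm38.p6. Promoter windows were found for 8 of the 10 genes, 10 windows in all, and Hmox1 and Gclc had none. A match was present in 5 of the 10 windows, those of Nfe2l2, Gclm, Txnrd1, G6pdx and Srxn1, and in 12.4% of all 32851 promoter windows. The match of Srxn1 lay 29 bases after the start, and the windows of Keap1, Nqo1 and Slc7a11 held none. The matches before the start are shown with their neighbouring bases, 5′ to 3′ on the strand of the gene, with the matching letters in capitals, because these genes span the lowest and the highest fold changes among the 8 genes tested. They lie at chr2:75704883-75704913 (minus strand, Nfe2l2), chr3:122245411-122245443 (plus strand, Gclm), chr10:82859102-82859134 (plus strand, 1 of 3 Txnrd1 windows) and chrX:74428917-74428949 (minus strand, G6pdx).
Nfe2l2: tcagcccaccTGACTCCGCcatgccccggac
Gclm: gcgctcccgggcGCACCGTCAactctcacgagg
Txnrd1: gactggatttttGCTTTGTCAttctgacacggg
G6pdx: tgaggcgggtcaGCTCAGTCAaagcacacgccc
A match is a description of the sequence and does not show that Nrf2 binds there.

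Values were FPKM, fragment counts scaled to transcript length and to the mapped fragments of the library, and so shares of a library. Haemoglobin genes held 92.6 to 95.1% of the summed FPKM in the Ctrl libraries and 95.7 to 96.4% in the Nar libraries, and the median FPKM of the 5339 genes averaging 0.5 or more was 1.85 and 1.97 in Ctrl against 0.89 and 0.74 in Nar. The median log2 fold change of these genes, Nar minus Ctrl on log2(FPKM + 0.1), was -1.07. The 12 neutrophil markers summed to 1746 and 1442 FPKM in Ctrl and to 106 and 165 in Nar, and all 12 fell, with a median of -3.67. The monocyte markers summed to 345 and 418 FPKM in Ctrl and to 140 and 96.1 in Nar. By the test given below, 6 of 8 tested were called lower, where 39.6% of all tested genes were. The erythroid markers summed to 9344 and 11360 FPKM in Ctrl and to 11378 and 10406 in Nar, and 0 of 17 tested passed the test. The B cell, T cell and platelet markers had 0 called of 8, 6 and 8 tested, and the NK cell markers 1 of 6. Each defining marker was above 0 in every library except Ms4a7 of the monocyte list. Fewer cells of a type and less RNA per cell cannot be told apart in blood as a whole, and the part of these markers in the values that follow was not tested.

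Because the typical gene was itself lower in Nar, each gene was given on 2 scales. The first is FPKM as deposited. The second is FPKM divided by a median-of-ratios size factor per library, 1.41 and 1.61 for Ctrl 1 and Ctrl 3 and 0.741 and 0.599 for Nar 1 and Nar 3, which brings the median fold change of the tested genes to 0.00, so that a fold change on it is a difference from the typical gene. On this second scale 6 of 12 neutrophil markers and 1 of 8 monocyte markers were called lower, where 0.599% of all tested genes were. Both were tested with limma over the 5339 genes, and a gene is called changed at a Benjamini-Hochberg adjusted p under 0.05. From here on a gene is said to have fallen only where it was called lower.

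No Nrf2 gene was called higher on either scale over the 5339 genes. In simulated data with 200 of 5339 genes changed, 19 of 100 2-fold changes were called, so a rise of that size can be missed. On FPKM as deposited, Nfe2l2, Hmox1 and G6pdx fell, 3 of the 8 genes tested (37.5%), where 39.6% of all tested genes fell, so their share was near the background. No member was called higher, where 0.187% of all tested genes were, and 4 of the 8 members had an unadjusted p under 0.05, where 56.9% of all tested genes did. Both Nar libraries lay below both Ctrl libraries for 5 of the 8 tested members, against 78.3% of all tested genes, and both lay above for 0, against 1.27%. The median log2 fold change of the 8 was -0.83, which was 0.24 above that of all genes, and 5 of the 8 were above it. Between libraries of a group, the members' median minus that of all genes had an SD of 0.158. The difference of 0.24 was 0.0143 without Ctrl 1 and 0.0893 with a pseudocount of 1, and it turned to -0.26 with no filter on low values. The members' own median was -0.83 for the 8 and for all 10, so the turn to -0.26 came from the median of all genes.

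The calls of Nfe2l2, Hmox1 and G6pdx did not pass when any 1 of the 4 libraries was left out, while their log2 fold changes kept their direction. With 1 library left out these ran from -1.98 to -1.12 for Nfe2l2 (adjusted p from 0.0635 to 0.232), from -1.99 to -1.29 for Hmox1 (adjusted p from 0.0617 to 0.151) and from -2.04 to -1.62 for G6pdx (adjusted p from 0.0826 to 0.199), and 0 to 259 of all 5339 genes were called, 0 without Ctrl 1 and 0 without Ctrl 3. With no filter on low values the 3 fold changes were as before and the adjusted p ran from 0.113 to 0.123, with 0 of 16382 genes called. With haemoglobin genes removed the fold changes were -1.02, -1.25 and -1.24 in the same order (adjusted p from 0.117 to 0.276).

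Relative to the typical gene, 0 of the 8 were called lower, against 0.599% of all tested genes, and 0 were called higher, against 0.187%. By limma 1 member, Gclm, had an unadjusted p under 0.05 on this scale, where 14.9% of all tested genes did. Only G6pdx had both Nar libraries below both Ctrl libraries, against 20.8% of all tested genes, while Gclm and Nqo1 had both above, against 21.1%. The median of the 8 was 0.20 on this scale. The calls depended on which genes were tested beside the members: when the test was restricted to genes averaging 5 FPKM or more, which leaves 3 members, Gclm was called higher relative to the typical gene (adjusted p = 0.0224), as were 12% of the 1083 genes then tested. With the size factors also taken from those 1083 genes it was not called (adjusted p = 0.0620).

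**Figure D1:**
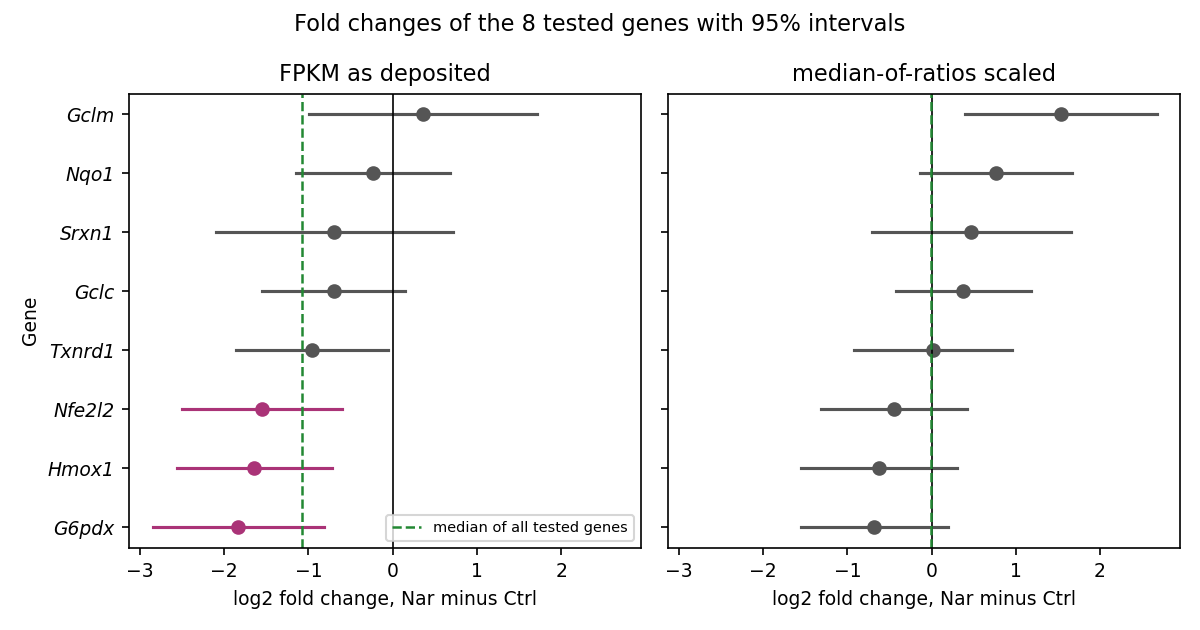
Log2 fold changes, Nar minus Ctrl, of the 8 tested genes on FPKM as deposited (left) and after median-of-ratios scaling (right), with 95% limma intervals as lines, the median of all tested genes as a dashed line and genes called at an adjusted p under 0.05 in magenta. Nfe2l2, Hmox1 and G6pdx are called on the left and none on the right, where the interval of Gclm, 0.40 to 2.67, lies above 0.

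The 10 genes were expressed at very different levels. FPKM is per length, so levels of different genes can be set side by side. The mean over the 4 libraries ran from 62.3 FPKM for Gclm through 13.2 for Srxn1, 6.83 for G6pdx, 2.14 for Nfe2l2, 1.18 for Gclc, 0.955 for Hmox1, 0.575 for Nqo1, 0.533 for Txnrd1 and 0.458 for Keap1 to 0.0375 for Slc7a11. Gclm was the highest and Slc7a11 the lowest of the 10 in every library. The neighbours Srxn1 and G6pdx changed places in Ctrl 1 and Nfe2l2 and Gclc in Nar 3. From Gclc down to Keap1 each gene's range over the libraries overlapped that of the next in the order, while Gclc, at 0.84 FPKM or more, lay above every value of Nqo1 and Txnrd1.

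**Figure D2:**
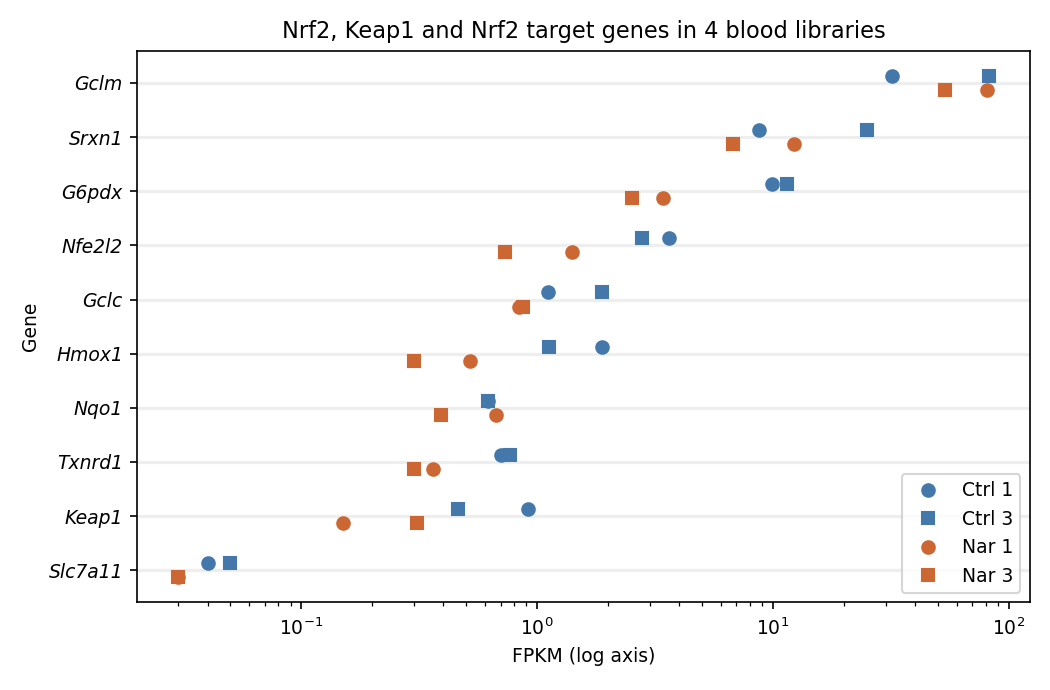
FPKM of the 10 genes on a log axis, with 1 point per library, Ctrl in blue and Nar in orange, circles for replicate 1 and squares for replicate 3. Gclm spans 31.96 to 82.52 FPKM with the groups overlapping, while both Nar libraries lie below both Ctrl libraries for Nfe2l2, Hmox1, G6pdx, Gclc, Txnrd1, Keap1 and Slc7a11.

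Nfe2l2 RNA fell on FPKM as deposited. The gene (NCBI Gene 18024, chr2:75675513-75704663, GRCm38.p6) had 3.62 and 2.79 FPKM in Ctrl 1 and Ctrl 3 and 1.41 and 0.73 in Nar 1 and Nar 3. Both Nar libraries were lower than both Ctrl libraries, and Nar 3 was the lowest of all. The log2 fold change was -1.55 ± 0.421 (SE, adjusted p = 0.0260), a value lower than that of all but 17.0% of tested genes. Relative to the typical gene it was -0.45 (adjusted p = 0.753, 95% interval -1.32 to 0.42), the groups overlapped, and it ran from -0.77 to -0.13 with 1 library left out. The profiles most like it over the 4 libraries, by Euclidean distance of log2(FPKM + 0.1) centred per gene among 5338 other genes, were those of Arhgef6 (0.0759), Slc25a11 (0.106) and S100a4 (0.114).

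Keap1 (Gene 50868, chr9:21229730-21239332), the adaptor that marks Nrf2 for degradation, was too low for the test across genes. It had 0.91 and 0.46 FPKM in Ctrl and 0.15 and 0.31 in Nar, so the groups did not overlap (exact permutation p = 0.33, the smallest possible). After scaling the groups overlapped, at 0.647 and 0.286 against 0.202 and 0.517. The ratio of Keap1 to Nfe2l2 within a library, which no scaling of whole libraries changes, was 0.251 and 0.165 in Ctrl and 0.106 and 0.425 in Nar. Both the highest and the lowest ratio were in Nar libraries.

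Hmox1, the inducible haem oxygenase and a commonly used readout of Nrf2 activity, fell. The gene (Gene 15368, chr8:75093618-75100593) had 1.88 and 1.12 FPKM in Ctrl and 0.52 and 0.30 in Nar, with no overlap. The log2 fold change was -1.64 ± 0.407 (SE, adjusted p = 0.0214), and relative to the typical gene -0.62 (adjusted p = 0.614, 95% interval -1.55 to 0.30), where the groups overlapped and the value was -1.06 without Ctrl 3 and -0.17 without Ctrl 1. Against Hmox2, the constitutive haem oxygenase, the ratio of Hmox1 was 0.319 and 0.169 in Ctrl and 0.109 and 0.0320 in Nar. Both Nar ratios were below both Ctrl ratios (exact permutation p = 0.33, the smallest possible). Hmox2 itself had a log2 fold change of 0.10, and of 1.26 relative to the typical gene. A gene at the median of all tested genes would thus also have a lower ratio to Hmox2 in Nar. The pairs of genes set as ratios here were chosen after the values had been seen.

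Gclc and Gclm encode the catalytic and the modifier subunit of glutamate-cysteine ligase, the rate-limiting enzyme of glutathione synthesis, and their values differed. Gclc (Gene 14629, chr9:77754535-77794489) had 1.11 and 1.89 FPKM in Ctrl and 0.84 and 0.87 in Nar. The Nar libraries were close to each other and below both Ctrl libraries, but the log2 fold change of -0.70 ± 0.374 (SE) did not pass the test (adjusted p = 0.137), and relative to the typical gene it was 0.38 (adjusted p = 0.795). With 1 library left out these ran from -1.06 to -0.34 and from 0.14 to 0.60.

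Gclm (Gene 14630, chr3:122245487-122267215) had 31.96 and 82.52 FPKM in Ctrl and 81.14 and 53.67 in Nar. The Ctrl libraries lay at both ends of the range with the Nar libraries between them. The log2 fold change was 0.36 ± 0.599 (SE, adjusted p = 0.604, 95% interval -0.99 to 1.71), and it was -0.32 without Ctrl 1. Relative to the typical gene it was 1.53 ± 0.505 (SE, 95% interval 0.40 to 2.67), which had an unadjusted p of 0.0136 and did not pass after adjustment (adjusted p = 0.167). Scaled values were 22.7 and 51.3 in Ctrl and 110 and 89.6 in Nar, with no overlap. Leaving out 1 library at a time gave 0.97 to 2.08 on this scale, and over the other settings its adjusted p ran from 0.0224 to 0.559.

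The ratio of Gclm to Gclc was 28.8 and 43.7 in Ctrl and 96.6 and 61.7 in Nar. Both Nar libraries were above both Ctrl libraries, by 2.18-fold on average (exact permutation p = 0.33, the smallest possible). Slc7a11 (Gene 26570, chr3:50364936-50499087), the cystine importer that feeds glutathione synthesis, had 0.04 and 0.05 FPKM in Ctrl and 0.03 in each Nar library. These values are a few steps of the 2 decimals to which the table was rounded, so no difference could be read from them at this precision.

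Txnrd1 and Srxn1 belong to the thioredoxin system, as the reductase of thioredoxin and the enzyme that repairs over-oxidised peroxiredoxins. Txnrd1 (Gene 50493, chr10:82833951-82897724) had 0.70 and 0.77 FPKM in Ctrl and 0.36 and 0.30 in Nar. The ratio of Txnrd1 to Txnrd2, its mitochondrial relative, was 0.327 and 0.112 in Ctrl and 0.0800 and 0.103 in Nar, lower in both Nar libraries (exact permutation p = 0.33, the smallest possible). Txnrd2 had a log2 fold change of -0.09, and of 1.05 relative to the typical gene, so a typical gene's ratio to it would also be lower in Nar. The replicates of Txnrd1 were close and the groups did not overlap, but the log2 fold change of -0.96 ± 0.398 (SE) missed the threshold (adjusted p = 0.0749). On the scaled values the fold change was 0.01 (adjusted p = 0.994, 95% interval -0.92 to 0.95).

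Srxn1 (Gene 76650, chr2:152105524-152111376) had 8.73 and 24.94 FPKM in Ctrl and 12.26 and 6.75 in Nar. Ctrl 3 stood above the other libraries, and the remaining values overlapped. The log2 fold change was -0.69 ± 0.622 (SE, adjusted p = 0.344) and turned to 0.06 without Ctrl 3. Relative to the typical gene it was 0.47 (adjusted p = 0.837, 95% interval -0.71 to 1.65). The platelet markers were also highest in Ctrl 3, at 2013 FPKM summed against 634 in Ctrl 1 and 563 and 415 in Nar, and their part in the Srxn1 values was not tested.

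Nqo1 (Gene 18104, chr8:107388225-107403205), the quinone reductase often used as a marker of Nrf2 activity, had 0.62 FPKM in each Ctrl library and 0.67 and 0.39 in Nar. Nar 1 was the highest and Nar 3 the lowest of the 4. The log2 fold change was -0.23 ± 0.405 (SE, adjusted p = 0.626) on FPKM as deposited and 0.76 (adjusted p = 0.463, 95% interval -0.14 to 1.66) relative to the typical gene.

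G6pdx (Gene 14381, chrX:74409483-74428880), the first enzyme of the pentose phosphate pathway and a main source of NADPH, had the lowest fold change of the 8 genes tested. It had 9.92 and 11.47 FPKM in Ctrl and 3.40 and 2.52 in Nar, with no overlap. It fell by 1.83 ± 0.450 (SE) on the log2 scale (adjusted p = 0.0211). Relative to the typical gene the value was -0.68 (adjusted p = 0.522, 95% interval -1.55 to 0.19), and both Nar libraries were still below both Ctrl libraries. The ratio of G6pdx to Pgd, which encodes the NADPH-producing enzyme that acts later in the same pathway, was 0.786 and 0.899 in Ctrl and 1.18 and 0.832 in Nar, and the groups overlapped. The ratio of G6pdx to Taldo1, a later enzyme of the pathway, was 0.114 and 0.0700 in Ctrl and 0.0347 and 0.0350 in Nar, both Nar libraries below both Ctrl libraries (exact permutation p = 0.33, the smallest possible). Taldo1 had a log2 fold change of -0.51, and of 0.66 relative to the typical gene, so a typical gene's ratio to it would also be lower in Nar.

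**Figure D3:**
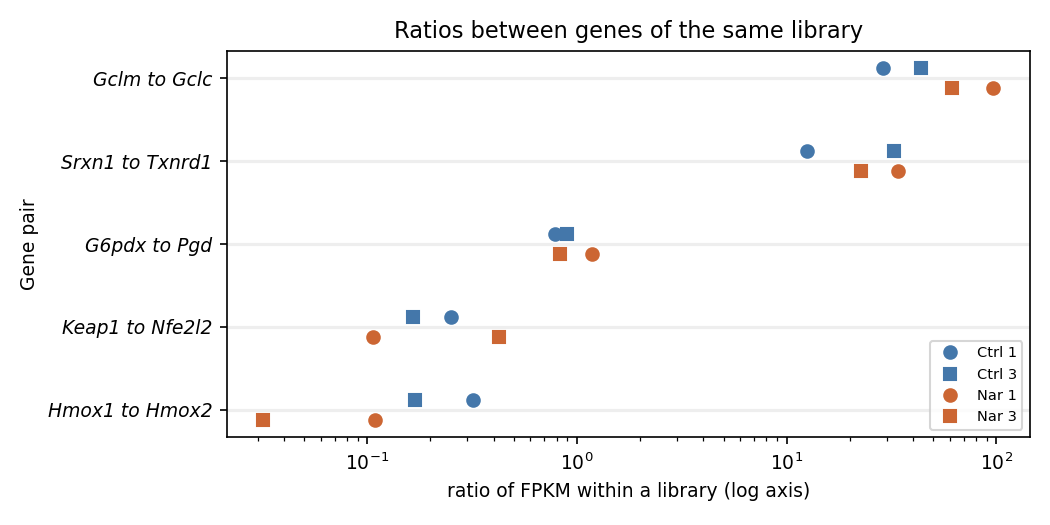
Ratios of FPKM between genes of the same library on a log axis, with 1 point per library, Ctrl in blue and Nar in orange, circles for replicate 1 and squares for replicate 3. Gclm to Gclc is higher in both Nar libraries (61.7 and 96.6 against 28.8 and 43.7), Hmox1 to Hmox2 is lower in both, and the groups overlap for the other plotted ratios, Srxn1 to Txnrd1, G6pdx to Pgd and Keap1 to Nfe2l2.

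The other genes of the pathway were read from 6 lists. On FPKM as deposited none of their tested genes was called higher, and after scaling none was called in either direction. The background for the counts that fell is 39.6% of all tested genes, and for both Nar libraries above both Ctrl libraries after scaling it is 21.1%, and for both below 20.8%. Of the genes that partner with or control Nrf2, 7 of 13 tested fell, with a median of -1.20 on FPKM as deposited beside -1.07 for all genes. After scaling the median was -0.09 and both Nar libraries lay above for 3 and below for 3 of 13. Bach1, the repressor at antioxidant response elements, had 1.74 and 2.02 FPKM in Ctrl and 0.54 and 0.25 in Nar and fell by 2.06 on the log2 scale (adjusted p = 0.0108). The coactivator gene Ep300 fell by 1.70 (adjusted p = 0.0134), while Mafg, a small Maf partner, had -0.57 and Sqstm1, whose product binds Keap1, had 0.31, neither past the test. Relative to the typical gene Bach1 had -1.04 (adjusted p = 0.207) and Sqstm1 1.48 (adjusted p = 0.153). The ratio of Bach1 to Nfe2l2 was 0.481 and 0.724 in Ctrl and 0.383 and 0.342 in Nar, lower in both Nar libraries (exact permutation p = 0.33, the smallest possible).

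Of the genes of glutathione synthesis and use, 5 of 12 tested fell, with a median of -0.94. After scaling the median was 0.20 and both Nar libraries lay above for 5 and below for 3 of 12. The glutathione transferase gene Mgst1 had 8.16 and 5.04 FPKM in Ctrl and 0.51 and 0.79 in Nar and fell by 3.14 on the log2 scale (adjusted p = 0.00427). The glutaredoxin gene Glrx fell by 2.34 (adjusted p = 0.00888). Mgst3 had 0.31 and Gpx1, a glutathione peroxidase abundant in red cells, had 0.32, neither past the test. Of the thioredoxin and peroxiredoxin genes, 3 of 11 tested fell, with a median of -0.87. After scaling the median was 0.28 and both Nar libraries lay above for 3 and below for 3 of 11. Txn1, the thioredoxin itself, fell by 2.40 (adjusted p = 0.00774) and Prdx5 by 1.71 (adjusted p = 0.0348), while Txnrd2 had -0.09 and Prdx2, a major red cell peroxiredoxin, had 0.45, neither past the test.

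Of the pentose phosphate and NADPH genes, 3 of 5 tested fell, with a median of -1.45. After scaling the median was -0.47 and both Nar libraries lay above for 1 and below for 2 of 5. Pgd fell by 2.07 (adjusted p = 0.0151) and the transketolase gene Tkt fell by 1.87 (adjusted p = 0.0208), while Pgls had -1.01 and Taldo1 -0.51, neither past the test. Of the genes of haem breakdown and ferritin, 1 of 6 tested fell, with a median of -0.07. After scaling the median was 1.10 and both Nar libraries lay above for 5 and below for 1 of 6. The erythroid markers had a scaled median of 1.49, with both Nar libraries above for 14 and below for 0 of 17, and their part in this was not tested. The gene that fell on FPKM as deposited was Slc40a1, the iron exporter, which fell by 2.39 (adjusted p = 0.00654). Fth1, the ferritin heavy chain, had -0.63, the haem transporter gene Slc48a1 0.22 and the biliverdin reductase gene Blvrb 0.78, and none of these passed the test.

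Of the further Nrf2 targets, 2 of 8 tested fell, with a median of -0.50. After scaling the median was 0.52 and both Nar libraries lay above for 5 and below for 1 of 8. The genes that fell on FPKM as deposited were Osgin1, which fell by 2.06 (adjusted p = 0.0225), and Nampt, which makes a precursor of NAD and fell by 1.73 (adjusted p = 0.0184). Cbr1, a carbonyl reductase, had 1.80 and 0.79 FPKM in Ctrl and 3.14 and 2.31 in Nar. Both Nar libraries were above both Ctrl libraries, with a log2 fold change of 1.10 ± 0.452 (SE) that did not pass the test (adjusted p = 0.0731), and of 2.20 relative to the typical gene (adjusted p = 0.0614). Ephx1, an epoxide hydrolase, had 0.33 and did not pass.

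**Figure D4:**
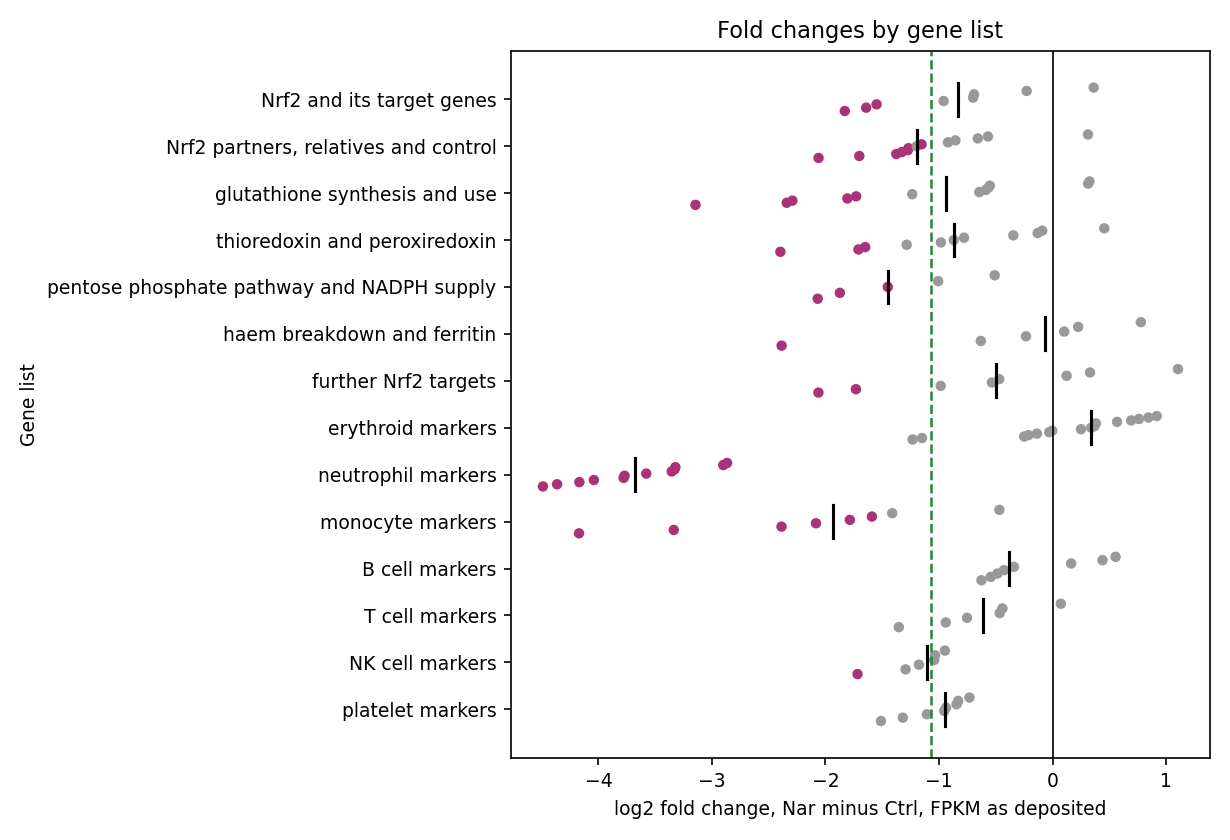
Log2 fold changes, Nar minus Ctrl on FPKM as deposited, of the tested genes of the Nrf2 set, of 6 pathway lists and of 7 blood cell marker lists, with called genes in magenta, list medians as black bars and the median of all tested genes, -1.07, as a dashed line. The neutrophil markers lie at the low end (median -3.67) and the erythroid markers at the high end (median 0.34), and the Nrf2 genes spread between -1.83 and 0.36.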

How the data were processed

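Blood RNA-seq of 2 Ctrl and 2 Nar libraries was used. The values deposited by the authors are FPKM for each gene with 2 decimals. The submitters' processing notes name TopHat2, Cufflinks and GRCm38, and the study's methods name bowtie-2 and DEGseq, so the aligner is not certain. All columns were matched to a library (0 left over). Of 23136 genes listed, 5313 were blank throughout and left out. Depth was treated as unknown. The best-fitting step of 1 read, as FPKM times kilobases of transcript, was similar in the 4 libraries, at 0.0437 to 0.0455. Low values followed it only in part, with scores of 0.317 to 0.400 on a scale from 0 to 1. Positions and promoter sequences came from RefSeq (GRCm38.p6).

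Log2(FPKM + 0.1) of 5339 genes averaging 0.5 FPKM or more was tested in limma 3.58.1 (R 4.3.3; lmFit, then eBayes with trend), two-sided, with Benjamini-Hochberg adjustment over all of them, as deposited and after median-of-ratios scaling. DEGseq needs counts and was not run. The steps were tested on data simulated from FPKM as deposited, with 200 of 5339 genes changed. Of these, 96 of 100 4-fold changes and 19 of 100 2-fold changes were called, as were 6 unchanged genes. Named pathway genes were the 2 lowest and 2 highest fold changes among the tested genes of each list. The genes and lists were chosen with earlier results of these data known. Alternatives were other pseudocounts, filters and scalings, haemoglobin genes removed, no trend, a replicate block and leaving out each library. The filter alternatives on scaled values were first run with the scaling genes changed as well, and both forms are given.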

Additional observations from a re-analysis of the deposited data

How the results depend on the processing

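Nfe2l2, Hmox1 and G6pdx were called lower on FPKM as deposited with a pseudocount of 1 or 0.01, rescaling to TPM, no trend and the replicate block. With a pseudocount of 1 their log2 fold changes were -1.04, -0.81 and -1.57, and with 0.01 they were -1.64, -1.85 and -1.86, since the pseudocount weighs most on low values. Members called lower numbered 0 with no filter, 1 with a mean FPKM of at least 5 (3 members tested), 0 with haemoglobin genes removed, 0 after median-of-ratios scaling and 0 with any library left out. Genes called, 2123 of 5339, numbered 0 with no filter, 117 with a mean of at least 5, 172 with haemoglobin genes removed (161 lower, 11 higher) and 42 after median-of-ratios scaling (32 lower, 10 higher). With a library left out there were 0 to 259, the lone library of a group being assumed to vary like the other group. The members' median minus that of all genes, 0.24, was 0.0893 with a pseudocount of 1, -0.26 with no filter and 0.0143 to 0.333 with a library left out. With no filter the median of all 10 members was still -0.83, so that change came from the median of all genes. The unadjusted p was under 0.05 for 3036 genes as deposited and 797 after scaling.

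On scaled values the 42 calls became 0 with no filter, 181 of 1083 with a mean of at least 5 (51 lower, 130 higher, beside 32 lower and 10 higher of 5339), 214 with ratios over genes of a mean of at least 5, and 0 to 130 with a library left out. Members called higher there numbered 1 with a mean of at least 5, which was Gclm. In the form first run, with the scaling genes changed along with the filter, there were 84 calls and 0 members, with Gclm at an adjusted p of 0.0620, and with no filter 0 calls.

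Deviations from the group mean were only weakly and negatively related between libraries of the same number (correlation -0.15 over 5339 genes), so the numbers were not taken to pair them. With the replicate block 1815 genes were called as deposited and 249 after scaling, with 3 and 0 members. With the crossed replicate block, added after the data were seen, 3233 and 84 were called, with 3 and 0 members.

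Among the 8 tested members, fold changes that turned sign were Gclm to -0.32 without Ctrl 1, Srxn1 to 0.0594 without Ctrl 3, Nqo1 to 0.10 without Nar 3 and to 0.34 with haemoglobin genes removed, and Nqo1 to 0.76, Gclc to 0.38, Txnrd1 to 0.0126 and Srxn1 to 0.47 after median-of-ratios scaling. On scaled values Txnrd1 turned to -0.0387 without Ctrl 3, to -0.0413 with no filter and ratios over the same genes, and to -0.22 with ratios over genes of a mean of at least 5, and Srxn1 to -0.16 without Ctrl 1. With a library left out the ranges were -0.32 to 1.04 for Gclm, -1.44 to 0.0594 for Srxn1 and -0.56 to 0.0969 for Nqo1 as deposited, and -0.0387 to 0.0561 for Txnrd1 and -0.16 to 1.09 for Srxn1 on scaled values. Of the untested members, Slc7a11 turned from -0.16 to 0.0388 with haemoglobin genes removed and to 0.16 after median-of-ratios scaling, and scaled Keap1 from -0.31 to 0.18 without Ctrl 1 and to 0.20 without Nar 1. The cause was not tested. With 2 libraries a group and unknown depth, values of a few hundredths of FPKM could not be compared.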

Other observations

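The closest profiles to single targets, looked up after the values had been seen, were as follows. The profile nearest to Gclm among 5338 genes was that of Cat, the catalase gene, with 68.69 and 173.86 FPKM in Ctrl and 170.73 and 120.21 in Nar (distance 0.0724). The ratio of Gclm to Slc4a1, the red cell anion exchanger, was 0.792 and 0.886 in Ctrl and 0.803 and 0.867 in Nar, while Gclm itself ran from 31.96 to 82.52 FPKM over the same libraries. Nearest to Srxn1 was Hk1, a hexokinase gene, with 7.47 and 20.15 FPKM in Ctrl and 10.30 and 5.50 in Nar (distance 0.0666). Nearest to Gclc was Fth1, with 696 and 1142 FPKM in Ctrl and 558 and 593 in Nar (distance 0.0745). These are descriptions over 4 libraries.

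The ratio of Nfe2l2 to the neutrophil gene S100a8 was 0.00810 and 0.00698 in Ctrl and 0.0407 and 0.0149 in Nar, and that of G6pdx to S100a8 was 0.0222 and 0.0287 in Ctrl and 0.0981 and 0.0513 in Nar. Both Nar libraries were above both Ctrl libraries for each (exact permutation p = 0.33, the smallest possible), so both genes were lower in Nar by less than S100a8 was. S100a8 had a log2 fold change of -3.35, beside a median of -1.07 for all tested genes. A gene at that median would also have a higher ratio to S100a8 in Nar, so these ratios show nothing particular to Nfe2l2 or G6pdx.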
